A study of Mus musculus with 6 samples.

Results

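Apoe encodes apolipoprotein E, the main protein of the lipid particles that move cholesterol and phospholipids between cells of the brain. It was followed here with 7 genes of the same traffic: Clu, Lrp1, Vldlr, Abca1, Abcg1, Lpl and Nr1h3. The 8 genes were taken by symbol from the 32285 genes of the deposited matrices, and each symbol belonged to 1 identifier. They were chosen by name, from a group that was proposed with earlier results of these data known.

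Astrocytes make and secrete apolipoprotein E and clusterin, the product of Clu, and the exporters ABCA1 and ABCG1 load these carriers with cholesterol and phospholipid. LRP1 and the very low density lipoprotein receptor VLDLR bind the loaded particles on other cells, and VLDLR also receives the signal of reelin. Lipoprotein lipase, the product of Lpl, releases fatty acids from lipoproteins, and the liver X receptor alpha, the product of Nr1h3, is a sterol-sensing transcription factor whose known targets include Apoe, Abca1, Abcg1 and Lpl. Microglia that take up debris and lipid are known for high Apoe.

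C57BL/6 S-56 neonates received 5 µl of lysophosphatidic acid (LPA) or of vehicle, a dilute solution of bovine serum albumin, in the right lateral ventricle at postnatal day 7, and brains were collected at postnatal day 15. LPA is a blood-borne lipid that serves here as a model of hydrocephalus after hemorrhage, and both groups underwent the same surgery. Each group had 3 libraries, which the labels call replicates of LPA-treated and vehicle-treated brain, and the p-values measure the spread between these 6 libraries. Nuclei from whole brain without olfactory bulbs and cerebellum were sorted as NeuN-negative, which selects against neurons, and counted by unique molecular identifiers (UMIs) with a 10x Genomics kit that reads the 3′ ends of transcripts.

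The libraries held between 48852970 and 65688644 UMIs, and 57443 nuclei passed the filters. Of the barcodes, 708 occurred in more than 1 library and 235 in all 6 libraries. They belonged to 804 of the nuclei kept. Within a group, summed UMIs of 2 libraries differed by far more than counting error, with 13.3 to 26.8 as the ratio of chi-square to its degrees of freedom. Clusters were named by marker genes, so that a name means nuclei like that cell type by these markers, and 47819 nuclei were named. The 8 genes, the other lipid genes and the markers had been kept out of the genes used for clustering. Neuronal nuclei remained in spite of the sort and were the largest named population, with 14552 nuclei. The median UMI count per nucleus was higher in every LPA library than in every vehicle library in each population tested but endothelial cells and neurons, whose ranges overlapped. It was 3006 to 3264 against 1848 to 2134 in Gfap-rich astrocytes, 1810 to 1993 against 1245 to 1472 in all microglia and 3559 to 4183 against 2466 to 3247 in multiciliated ependymal cells, and its part in the results was not tested. Levels are given in CPM, the UMIs of a gene per 1000000 UMIs of its population, after correction of that total by trimmed mean of M-values (TMM) factors. Differences between LPA and vehicle are log2 fold changes of edgeR's quasi-likelihood test on UMIs summed per library and population. A gene was called changed at a Benjamini-Hochberg adjusted p under 0.05, over all genes tested in the population, if its log2 fold change was 0.25 or more in either direction. Groups that do not overlap are a description of the libraries and do not stand in for a call. The share of all genes whose groups do not overlap is not given here. The test was run in 15 populations, of which all microglia joins the microglial states. In such sums, fewer nuclei that express a gene and less RNA per nucleus cannot be told apart.

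By CPM, Apoe rose in the microglia as a whole and fell in astrocytes and ependymal cells of LPA-injected brains, while Abca1 and Abcg1 rose in microglia and Clu fell in all 3 astrocyte populations. Of the 120 pairs of a gene and a population, 87 passed the filter on low counts. edgeR called 6 pairs higher and 8 lower in LPA libraries. Among all microglia 3 of 6 genes tested were higher and 1 was lower, where 9.26% of all genes tested were called, and the median log2 fold change was 0.54 for the 6 genes and −0.01 for all genes. In Gfap-rich astrocytes 1 of 5 was higher and 2 were lower, beside 9.22% of all genes, with medians of −0.06 and −0.02. Telencephalic astrocytes had 2 of 7 lower beside 2.57% of all genes, and Slc6a11 Agt astrocytes 1 of 5 lower beside 0.425%. Multiciliated ependymal cells had 1 of 6 lower beside 3.86%, and meningeal cells 1 of 7 lower beside 1.19%. In committed precursors and new oligodendrocytes 1 of 6 was higher beside 2.26%, and in homeostatic microglia 1 of 5 was higher beside 0.356%.

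In 7 populations edgeR's quasi-likelihood test called 0 of the 8 genes, and so did DESeq2 where it gave an adjusted p. Neurons were tested for 8 genes beside 0.0885% of all genes called, and Clu was under an unadjusted p of 0.05. Oligodendrocyte precursors (6 genes tested, 0.142% of all genes called), pericytes and smooth muscle cells (6 genes, 0.247%) and choroid plexus epithelium (6 genes, 0.0496%) each had Apoe under an unadjusted p of 0.05. Mature oligodendrocytes (6 genes, 0.474%) had Clu and Abcg1 under it, and endothelial cells (6 genes, 0.0%) had Vldlr and Abca1. Macrophages were tested for 2 genes, beside 0.268% of all genes, and had 0 under it. On simulated counts of the same depth, edgeR's test found between 30% (macrophages) and 87% (neurons) of 200 genes changed by 1 on the log2 scale.

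**Figure D1:**
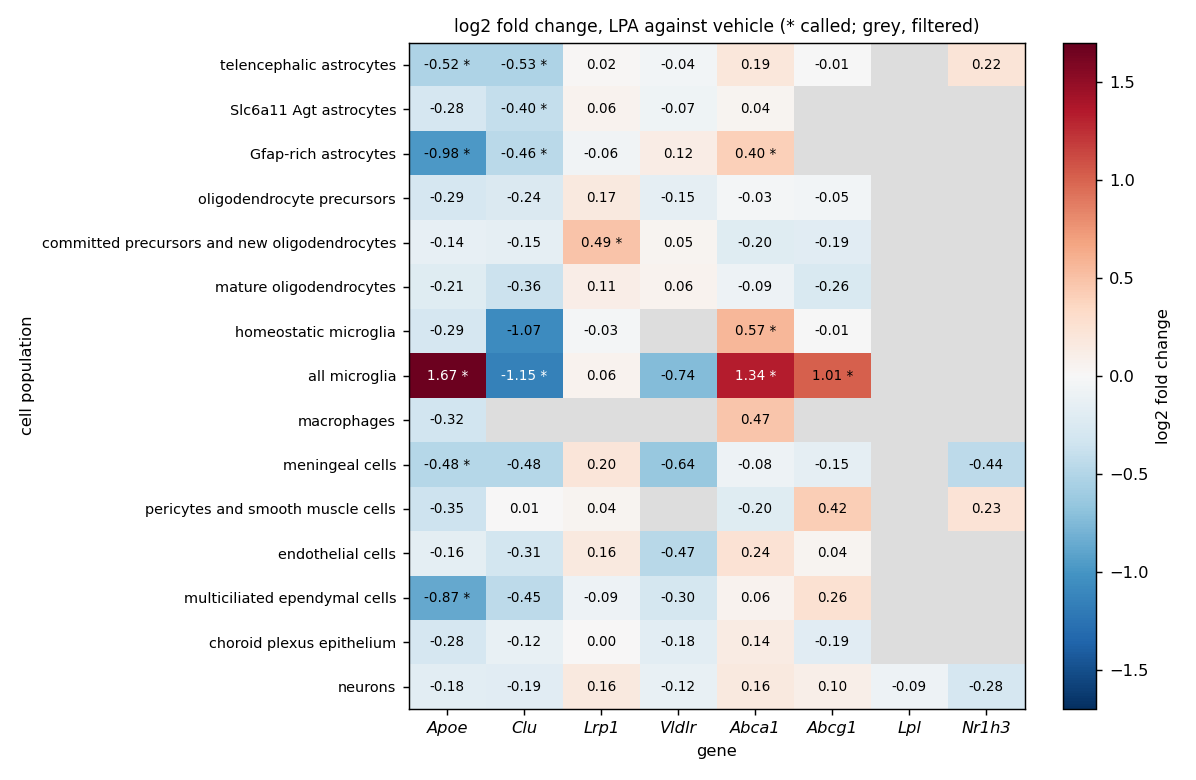
Log2 fold change between LPA and vehicle libraries for the 8 genes (columns) in 15 populations (rows), by edgeR's quasi-likelihood test, as colour (red higher, blue lower with LPA) and number. An asterisk marks the 14 pairs that were called, and grey marks pairs that did not pass the filter on low counts. The strongest reds are Apoe, Abca1 and Abcg1 in all microglia (1.67, 1.34 and 1.01), and Apoe is blue in Gfap-rich astrocytes and ependymal cells (−0.98 and −0.87).

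Apoe (ENSMUSG00000002985) lies on the minus strand of chromosome 7 at 19696109 to 19699188 in GRCm38, the assembly of mm10. The promoters of 5 of the 8 genes were in the RefSeq table for GRCm38.p6, and those of Apoe and Abca1, which were called in astrocytes as well as in microglia, are shown. Each runs from 250 bases before the start to 50 bases after it, on the strand of the gene. Capitals mark matches, searched on both strands, to the nuclear receptor half-sites AGGTCA and GGGTCA, the E-box CACGTG, the TATA motif TATAAA and the GC box GGGCGG. The Apoe promoter shown, chr7:19699139-19699438, is 1 of 3 in the table and held GGGTCA from 28 to 23 bases before the start, a motif found in 13.7% of 32851 RefSeq promoters of this length. AGGTCA was in none of the promoters of the 5 genes and in 16.3% of all promoters. A match is a description of the letters, not a site. Only exact matches were sought, so the lack of a match does not mean that no such site is there.
Apoe promoter: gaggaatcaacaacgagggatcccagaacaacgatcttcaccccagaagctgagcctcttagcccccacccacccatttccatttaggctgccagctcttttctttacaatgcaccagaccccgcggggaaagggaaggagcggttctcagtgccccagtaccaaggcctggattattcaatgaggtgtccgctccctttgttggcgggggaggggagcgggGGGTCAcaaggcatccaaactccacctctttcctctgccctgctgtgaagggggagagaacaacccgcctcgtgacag

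In vehicle libraries, Apoe was highest in macrophages and in the 3 astrocyte populations. Macrophages held 3790 to 5640 CPM, Gfap-rich astrocytes 3340 to 4010 CPM, telencephalic astrocytes 2950 to 3880 CPM and Slc6a11 Agt astrocytes 2720 to 3450 CPM, ranges that overlapped from each population to the next. A gap separated them from multiciliated ependymal cells (735 to 1240 CPM), followed by meningeal cells (699 to 950 CPM) and homeostatic microglia (480 to 711 CPM). The lowest levels were in neurons (142 to 200 CPM), committed precursors and new oligodendrocytes (114 to 180 CPM) and mature oligodendrocytes (88.4 to 145 CPM). By raw UMIs, telencephalic, Slc6a11 Agt and Gfap-rich astrocytes held 29.5%, 15.6% and 5.00% of the 95176 Apoe UMIs of all vehicle nuclei, while homeostatic microglia held 0.507%.

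Free RNA can leave UMIs of an abundant gene in nuclei that do not transcribe it. Per nucleus of vehicle libraries, mature oligodendrocytes held 5.44%, neurons 8.83%, homeostatic microglia 8.39% and pericytes 5.27% of the Apoe UMIs of telencephalic astrocytes. For Slc1a2, a glutamate transporter of astrocytes, the same populations held 1.85%, 4.96%, 1.65% and 1.72%. Ependymal cells held 35.9% for Apoe and 6.17% for Slc1a2, and macrophages 86.6% and 1.90%. The part of free RNA in the low levels of Apoe was not tested.

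**Figure D2:**
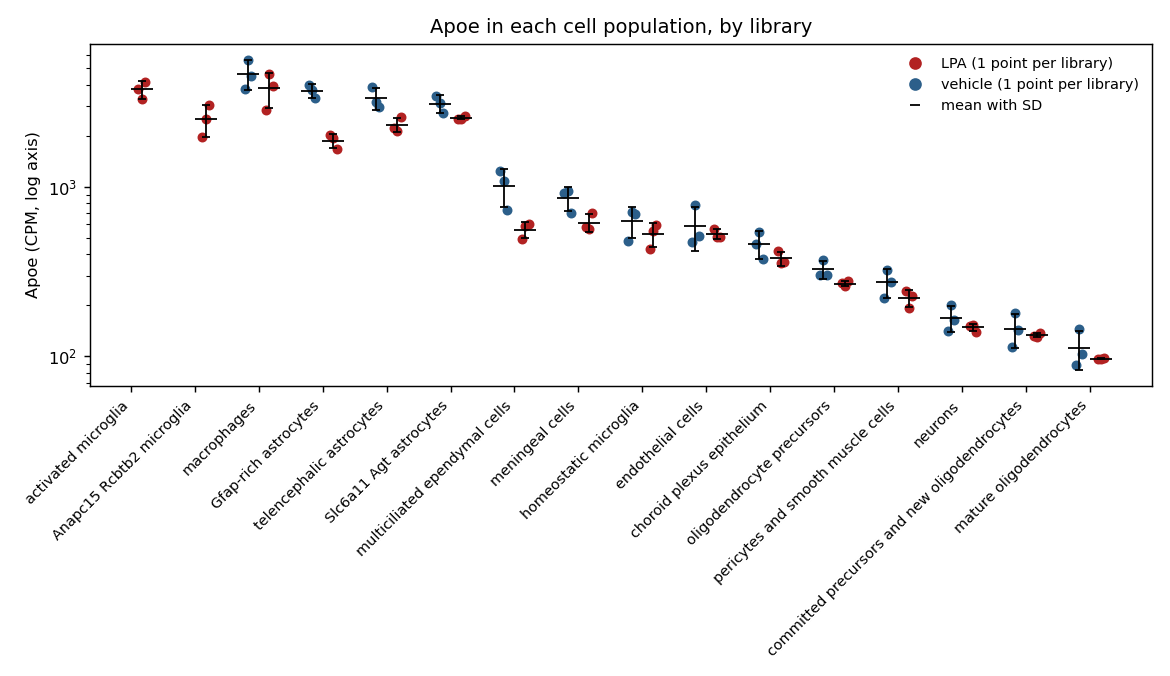
Apoe in CPM (vertical log axis) for each population (horizontal axis), with 1 point per library (LPA red, vehicle blue) and the mean with SD of 3 libraries. Astrocytes and macrophages are at or above 1680 in every library, and activated microglia of LPA libraries lie among them at 3290 to 4180.

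In LPA libraries Apoe fell in telencephalic and Gfap-rich astrocytes. The 3 LPA libraries of telencephalic astrocytes, which are marked by the forebrain gene Lhx2, held 2230, 2150 and 2570 CPM, and the vehicle libraries 3880, 3160 and 2950 CPM. Gfap-rich astrocytes held 2010, 1940 and 1680 CPM against 4010, 3740 and 3340 CPM. In CPM, every LPA library was below every vehicle library in both populations. Median UMI counts per nucleus were 3328 to 3451 with LPA against 2660 to 3144 with vehicle in telencephalic astrocytes. In Gfap-rich astrocytes they were 3006 to 3264 against 1848 to 2134. A lower share of UMIs therefore need not be as large a fall in UMIs per nucleus, and this was not tested. The level in telencephalic astrocytes was 1.44-fold lower, with a log2 fold change of −0.52 (SE 0.08, edgeR adjusted p = 0.001), and in Gfap-rich astrocytes 1.98-fold lower, with −0.98 (SE 0.11, edgeR adjusted p = 2.4e-06). Both calls were kept in all 16 alternatives, without each library in turn included.

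Slc6a11 Agt astrocytes, marked by the GABA transporter gene Slc6a11 and the angiotensinogen gene Agt, held 2530, 2520 and 2610 CPM of Apoe in LPA libraries and 3450, 3120 and 2720 CPM in vehicle libraries. The groups did not overlap, and the difference of −0.28 (SE 0.07) was not called (edgeR adjusted p = 0.079). The call for Apoe in Slc6a11 Agt astrocytes was reached without vehicle 3, the lowest of the vehicle libraries (−0.37, edgeR adjusted p = 0.035), and by DESeq2 (−0.28, adjusted p = 0.049).

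The LPA effect on Apoe was tested for a difference between astrocyte populations, with the library as a block. In Gfap-rich astrocytes it was lower than in telencephalic astrocytes by −0.46 on the log2 scale (SE 0.09, edgeR adjusted p = 0.00042), where 4.99% of all genes tested differed. In Slc6a11 Agt astrocytes it was higher than in telencephalic astrocytes by 0.26 (SE 0.05, edgeR adjusted p = 0.00073), where 0.128% of all genes differed. The difference of Gfap-rich astrocytes was not called without LPA 3 (−0.29, edgeR adjusted p = 0.079). That of Slc6a11 Agt astrocytes was not called without LPA 1, LPA 2, vehicle 1 or vehicle 3 (0.19 to 0.25, edgeR adjusted p = 0.002 to 0.22), in part because its size fell under 0.25.

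Of 4 other astrocyte genes, none was called lower in the 3 astrocyte populations. These 4 do not stand for all astrocyte genes. Over all genes, edgeR called 149 lower in telencephalic, 32 in Slc6a11 Agt and 341 in Gfap-rich astrocytes. Gfap, an intermediate filament gene of reactive astrocytes, rose by 0.48 (SE 0.10) in telencephalic and by 0.89 (SE 0.11) in Gfap-rich astrocytes (edgeR adjusted p = 0.011 and 1.6e-05). Slc1a2 rose by 0.46 (SE 0.12) in Gfap-rich astrocytes (edgeR adjusted p = 0.019), and the water channel gene Aqp4 and the gap junction gene Gja1 were at 0.19 and 0.17 there and were not called. In telencephalic astrocytes Slc1a2, Aqp4 and Gja1 were at −0.03, −0.11 and −0.28 (edgeR adjusted p = 0.85, 0.62 and 0.075), and in Slc6a11 Agt astrocytes at −0.05, −0.17 and −0.13, and none of these was called. Gja1 in telencephalic astrocytes held 373, 378 and 435 CPM with LPA against 544, 460 and 444 CPM with vehicle, groups that did not overlap. Gfap-rich astrocytes were 1334 nuclei in LPA and 583 in vehicle libraries, and a shift of subtypes within this population cannot be told apart from a change per nucleus.

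**Figure D3:**
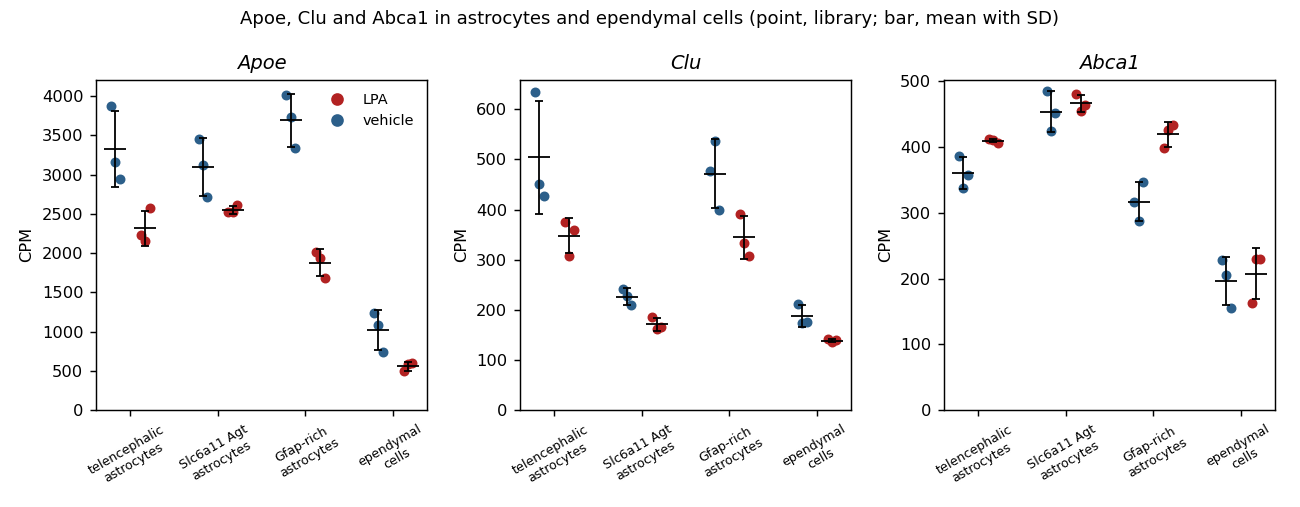
Apoe, Clu and Abca1 in CPM (vertical axes, from 0) in the 3 astrocyte populations and ependymal cells (horizontal axes), with 1 point per library (LPA red, vehicle blue) and the mean with SD of 3 libraries. In astrocytes every LPA library lies below every vehicle library for Apoe and Clu in all 3 populations, and above for Abca1 in telencephalic and Gfap-rich astrocytes.

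Multiciliated ependymal cells, which line the ventricles, held 493, 586 and 600 CPM of Apoe in LPA libraries and 1240, 1080 and 735 CPM in vehicle libraries. The level in CPM was 1.82-fold lower with LPA, a log2 fold change of −0.87 (SE 0.14, edgeR adjusted p = 0.0012), and the call was kept in all 16 alternatives. Gfap rose by 1.76 (SE 0.26) in the same nuclei (edgeR adjusted p = 0.00026), from 14, 11 and 8 UMIs in vehicle libraries. Gfap was also higher with LPA in neurons, at 14.6, 11.8 and 12.5 CPM against 5.45, 6.31 and 5.04 CPM. In choroid plexus epithelium the ranges overlapped, at 12.4 to 20.2 against 8.1 to 22.3 CPM. Scrublet called 18.9% of the ependymal cluster doublets, and the part of doublets and of free RNA was not tested. The LPA effect on Apoe was not called different from that in telencephalic astrocytes (−0.28, SE 0.12, edgeR adjusted p = 0.33), in a comparison where 1.27% of all genes differed.

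Meningeal cells held 577, 568 and 704 CPM of Apoe in LPA and 922, 950 and 699 CPM in vehicle libraries, so that vehicle 3 lay below LPA 3. Apoe was called lower there (−0.48, SE 0.12, edgeR adjusted p = 0.038). The call for Apoe in meningeal cells was lost without LPA 1 (adjusted p = 0.18), LPA 2 (0.17), vehicle 1 (0.12) or vehicle 2 (0.16), and without the mitochondrial filter the log2 fold change was −0.10 (edgeR adjusted p = 0.78). The LPA effect there was not called different from that in telencephalic astrocytes (0.04, SE 0.10, edgeR adjusted p = 0.97, with 0.852% of all genes different). This population held 760 LPA and 2014 vehicle nuclei. In the other populations outside the microglia the differences in Apoe lay between −0.35 (pericytes and smooth muscle cells) and −0.14 (committed precursors and new oligodendrocytes) and were not called.

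Microglia were 1329 nuclei in LPA and 526 in vehicle libraries, and their states differed between the groups. Activated microglia, marked by Spp1 and Gpnmb, were 102, 162 and 158 nuclei of the LPA libraries, or 27.1%, 30.2% and 38.0% of their microglia, and 0, 0 and 1 nuclei of the vehicle libraries. Homeostatic microglia, marked by P2ry12, Siglech and Tmem119, were 199, 265 and 145 against 108, 305 and 93 nuclei. A further group led by Anapc15 and Rcbtb2 had 61, 82 and 90 against 1, 7 and 1 nuclei. With no vehicle level for the activated state, its members are described in LPA libraries only and without a test.

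In LPA libraries, activated microglia held 3800, 3290 and 4180 CPM of Apoe, above the astrocytes of the same libraries and within the range of their macrophages. Homeostatic microglia of the same libraries held 429, 553 and 592 CPM, so that the activated state was 8.86-, 5.95- and 7.05-fold higher. The Anapc15 Rcbtb2 microglia lay between these states at 1960, 2500 and 3040 CPM, or 4.56-, 4.52- and 5.14-fold over homeostatic. Spp1 in that group was at 45.7, 42.7 and 82.7 CPM (6, 7 and 14 UMIs), between activated microglia (818, 896 and 786 CPM) and homeostatic microglia (5.39, 15.4 and 0 CPM) of the same libraries. Microglia led by the interferon-response genes Rnf213 and Oasl2 held 511, 737 and 967 CPM of Apoe in 12, 30 and 36 UMIs. Activated nuclei supplied 67.6%, 64.0% and 67.0% of the Apoe UMIs of all microglia in the LPA libraries.

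Over all microglia Apoe reached 1740, 1840 and 2630 CPM in LPA libraries against 494, 754 and 668 CPM in vehicle libraries. This 3.17-fold rise (log2 fold change 1.67, SE 0.15, edgeR adjusted p = 4.9e-11) was kept in all 16 alternatives. Within homeostatic microglia the level was 429, 553 and 592 CPM with LPA against 480, 711 and 696 CPM with vehicle, ranges that overlapped, and the difference of −0.29 (SE 0.14, 95% interval −0.57 to −0.01) was not called (edgeR adjusted p = 0.67). Macrophages, marked by Mrc1 and F13a1, held 2850, 4620 and 3960 CPM against 3790, 5640 and 4500 CPM (−0.32, edgeR adjusted p = 0.76). The rise over all microglia was thus measured in a mixture whose states differed in number, and the 2 states with high Apoe had at most 7 nuclei in any vehicle library.

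**Figure D4:**
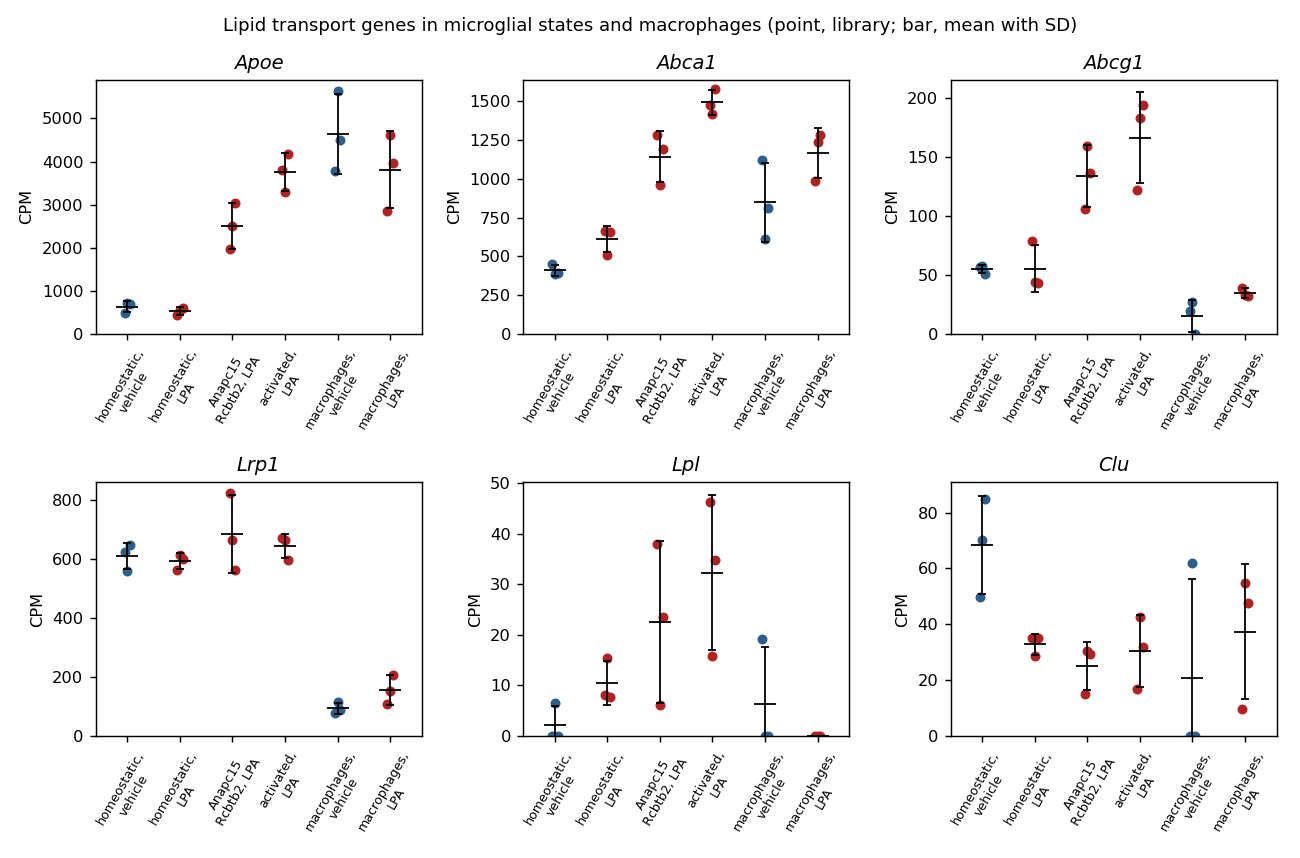
Apoe, Abca1, Abcg1, Lrp1, Lpl and Clu in CPM (vertical axes, from 0) in homeostatic microglia and macrophages of vehicle (blue) and LPA libraries (red) and in Anapc15 Rcbtb2 and activated microglia of LPA libraries, with 1 point per library and the mean with SD of 3. Apoe and Abca1 are highest in activated microglia among the microglial states in each LPA library, while Lrp1 stays between 561 and 822 CPM in the microglial states of LPA libraries.

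Clu (ENSMUSG00000022037, chromosome 14, 65968483 to 65981547, plus strand) encodes clusterin, a secreted chaperone that is also called apolipoprotein J. In vehicle libraries it was highest in telencephalic astrocytes (428 to 634 CPM) and Gfap-rich astrocytes (400 to 537 CPM), ranges that overlapped, followed with a gap by Slc6a11 Agt astrocytes (209 to 242 CPM) and ependymal cells (174 to 212 CPM). All other populations were at or under 104 CPM. Mature oligodendrocytes, at 13.2 to 19.1 CPM, held 5.04% of the Clu UMIs of telencephalic astrocytes per nucleus.

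As a share of UMIs, Clu fell in all 3 astrocyte populations. Telencephalic astrocytes held 376, 308 and 360 CPM in LPA libraries and 634, 450 and 428 CPM in vehicle libraries (−0.53, SE 0.11, edgeR adjusted p = 0.0082). Gfap-rich astrocytes held 392, 334 and 307 CPM against 477, 537 and 400 CPM (−0.46, SE 0.12, edgeR adjusted p = 0.017). Slc6a11 Agt astrocytes held 186, 162 and 166 CPM against 242, 227 and 209 CPM (−0.40, SE 0.09, edgeR adjusted p = 0.047). The LPA and vehicle ranges of CPM did not overlap in any of the 3 populations, and the differences from telencephalic astrocytes were 0.04 (SE 0.12) and 0.13 (SE 0.09) and were not called. In UMIs per nucleus the ranges overlapped in all 3. Telencephalic astrocytes held 1.33, 1.06 and 1.26 against 2.12, 1.47 and 1.21. Gfap-rich astrocytes held 1.35, 1.05 and 0.986 against 1.22, 1.22 and 0.806, and Slc6a11 Agt astrocytes 0.673, 0.573 and 0.577 against 0.772, 0.726 and 0.566. The part of the higher UMI counts of LPA nuclei was not tested.

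These calls depended on single libraries. Clu in telencephalic astrocytes was not called without LPA 2 (−0.45, edgeR adjusted p = 0.10), nor by DESeq2 (adjusted p = 0.10). It was called at −0.34 without vehicle 1 (edgeR adjusted p = 0.014), the highest vehicle library. Clu in Gfap-rich astrocytes was not called without LPA 2 (−0.44), LPA 3 (−0.39) or vehicle 2 (−0.34), at edgeR adjusted p = 0.071, 0.12 and 0.16, and was −1.10 (edgeR adjusted p = 0.00012) with neither the mitochondrial filter nor the nuclei of shared barcodes. Clu in Slc6a11 Agt astrocytes was not called without LPA 2, LPA 3, vehicle 1, vehicle 2 or vehicle 3 (−0.45 to −0.35, edgeR adjusted p = 0.062 to 0.25).

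Outside the astrocytes, ependymal cells held 141, 135 and 139 CPM of Clu against 212, 174 and 176 CPM, groups that did not overlap, and the difference of −0.45 (SE 0.13) was not called (edgeR adjusted p = 0.053). Over all microglia Clu was called lower (−1.15, SE 0.28, edgeR adjusted p = 0.004), on 19, 35 and 26 UMIs in LPA and 8, 34 and 10 UMIs in vehicle libraries. The call for Clu in all microglia was lost without vehicle 2 (−1.01, edgeR adjusted p = 0.19). Per nucleus the microglia held 5.90% of the astrocytic Clu UMIs in vehicle libraries and 4.88% in LPA libraries, close to the shares in mature oligodendrocytes (5.04% and 6.46%).

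Lrp1 (ENSMUSG00000040249, chromosome 10, 127538161 to 127621148, minus strand) encodes a large endocytic receptor for apolipoprotein E and many other ligands. Among vehicle populations it was highest in homeostatic microglia (559 to 645 CPM), above Slc6a11 Agt astrocytes (479 to 527 CPM), with a gap between the ranges. Oligodendrocyte precursors (338 to 432 CPM), meningeal cells (297 to 349 CPM) and telencephalic astrocytes (304 to 353 CPM) overlapped in this order. Along the oligodendrocyte lineage the level was lower in committed precursors and new oligodendrocytes (53.8 to 75.8 CPM) and lowest in mature oligodendrocytes (11.2 to 11.8 CPM), 3 ranges that did not overlap.

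Lrp1 rose in committed precursors and new oligodendrocytes, from 75.8, 72.2 and 53.8 CPM in vehicle libraries to 89.6, 104 and 89.7 CPM in LPA libraries. The rise of 1.40-fold (log2 fold change 0.49, SE 0.12, edgeR adjusted p = 0.024) rested on 183, 291 and 208 UMIs against 132, 144 and 89 UMIs. This population joins a cluster led by Gpr17 (849 nuclei, 59.6% from LPA libraries) and a cluster with Enpp6 among its leading genes (1951 nuclei, 49.1%). A shift between these clusters cannot be told apart from a change per nucleus. The call for Lrp1 in committed precursors and new oligodendrocytes was lost without LPA 2 (0.41, edgeR adjusted p = 0.16) and without vehicle 3 (0.36, edgeR adjusted p = 0.15). In all microglia Lrp1 was at 636, 628 and 587 CPM with LPA and 610, 566 and 604 CPM with vehicle (0.06, 95% interval −0.18 to 0.31). Activated microglia held 671, 664 and 596 CPM, which was 1.20-, 1.08- and 0.993-fold of the homeostatic level in the same libraries.

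Vldlr (ENSMUSG00000024924, chromosome 19, 27216484 to 27254231, plus strand) had the reverse order in the oligodendrocyte lineage. Mature oligodendrocytes held 199 to 212 CPM and committed precursors and new oligodendrocytes 173 to 199 CPM in vehicle libraries, above choroid plexus epithelium (97.1 to 152 CPM) and oligodendrocyte precursors (62.9 to 72.6 CPM). The lowest levels were in meningeal cells (15.5 to 27.0 CPM) and pericytes and smooth muscle cells (13.7 to 28.7 CPM). In mature oligodendrocytes the 3 LPA libraries held 204, 217 and 225 CPM and the vehicle libraries 211, 199 and 212 CPM, a difference of 0.06 (95% interval −0.06 to 0.18).

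edgeR called Vldlr in 0 of the 12 populations in which it passed the filter, and DESeq2 in 0 of the 10 in which it gave an adjusted p, with endothelial cells and all microglia under an unadjusted p of 0.05. Endothelial cells held 38.5 to 40.3 CPM with LPA against 58.6, 52.5 and 53.3 CPM with vehicle, groups that did not overlap (−0.47, SE 0.16, edgeR adjusted p = 0.72). Over all microglia the difference was −0.74 (SE 0.32, edgeR adjusted p = 0.17), and Vldlr in all microglia was called lower with Scrublet's doublets left out (−1.08, edgeR adjusted p = 0.0032).

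Abca1 (ENSMUSG00000015243, chromosome 4, 53030787 to 53159895, minus strand) encodes the exporter that passes cholesterol and phospholipid to lipid-poor apolipoproteins. Its promoter, chr4:53159846-53160145, is shown because Abca1 rose where Apoe rose and also where Apoe fell. It held CACGTG from 147 to 142 bases before the start (7.15% of RefSeq promoters), TATAAA from 29 to 24 bases (13.6%) and GGGCGG from 163 to 158 and from 97 to 92 bases (35.7%).
Abca1 promoter: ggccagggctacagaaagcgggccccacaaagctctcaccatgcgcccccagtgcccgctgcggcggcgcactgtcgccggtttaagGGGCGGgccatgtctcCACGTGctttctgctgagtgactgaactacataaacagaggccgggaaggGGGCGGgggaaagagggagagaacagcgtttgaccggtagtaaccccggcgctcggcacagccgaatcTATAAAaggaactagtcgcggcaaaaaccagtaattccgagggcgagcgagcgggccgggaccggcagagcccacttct

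In vehicle libraries Abca1 was highest in macrophages (610 to 1120 CPM). Slc6a11 Agt astrocytes (424 to 486 CPM), homeostatic microglia (388 to 449 CPM), meningeal cells (336 to 433 CPM), telencephalic astrocytes (338 to 386 CPM), Gfap-rich astrocytes (287 to 347 CPM) and endothelial cells (307 to 312 CPM) followed, each range overlapping the next. Neurons (23.0 to 27.6 CPM) and mature oligodendrocytes (10.5 to 15.3 CPM) were lowest.

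Over all microglia Abca1 rose 2.52-fold, from 451, 401 and 366 CPM in vehicle libraries to 1010, 935 and 1150 CPM in LPA libraries (log2 fold change 1.34, SE 0.13, edgeR adjusted p = 7.6e-10), in all 16 alternatives. Activated microglia held 1480, 1420 and 1580 CPM, which was 2.24-, 2.79- and 2.41-fold the homeostatic level of the same libraries, and Anapc15 Rcbtb2 microglia 1280, 958 and 1190 CPM. Abca1 was also called higher within homeostatic microglia, at 660, 511 and 654 CPM with LPA against 449, 388 and 391 CPM with vehicle (0.57, SE 0.15, edgeR adjusted p = 0.043). The call for Abca1 in homeostatic microglia was kept in 6 of 16 alternatives. It was lost without LPA 1, LPA 3, vehicle 2 or vehicle 3 (0.49 to 0.55, edgeR adjusted p = 0.12 to 0.46), without the nuclei of shared barcodes (0.57, edgeR adjusted p = 0.054) and by DESeq2 (0.57, adjusted p = 0.66).

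In Gfap-rich astrocytes, where Apoe and Clu fell, Abca1 rose from 317, 287 and 347 CPM to 398, 426 and 434 CPM (0.40, SE 0.11, edgeR adjusted p = 0.019). The call for Abca1 in Gfap-rich astrocytes was lost without LPA 2 (0.39, edgeR adjusted p = 0.072), LPA 3 (0.37, 0.093) or vehicle 2 (0.33, 0.13). With scaling by total UMIs alone, which moved the median of all genes from −0.02 to −0.12, the difference was 0.29 and was not called. Telencephalic astrocytes held 412, 411 and 407 CPM against 386, 338 and 358 CPM, groups that did not overlap (0.19, SE 0.07, edgeR adjusted p = 0.21). Slc6a11 Agt astrocytes held 481, 455 and 464 CPM against 486, 424 and 452 CPM (0.04, 95% interval −0.12 to 0.20).

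Abcg1 (ENSMUSG00000024030, chromosome 17, 31057675 to 31117988, plus strand) encodes an exporter of cholesterol to particles that already hold lipid. It had another distribution than Abca1, with the highest vehicle levels in endothelial cells (66.2 to 87.6 CPM), oligodendrocyte precursors (57.5 to 78.5 CPM), mature oligodendrocytes (53.0 to 57.7 CPM) and homeostatic microglia (50.9 to 57.0 CPM), whose ranges overlapped from each to the next. Slc6a11 Agt and telencephalic astrocytes were lowest, at 2.53 to 6.07 and 3.47 to 3.86 CPM.

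Abcg1 rose over all microglia from 54.9, 60.6 and 47.7 CPM, in 9, 29 and 6 UMIs, to 99.8, 114 and 132 CPM in LPA libraries. The change was 2.01-fold (log2 fold change 1.01, SE 0.23, edgeR adjusted p = 0.0022) and was kept in all 16 alternatives. Activated microglia held 122, 183 and 194 CPM, or 1.56-, 4.16- and 4.52-fold the homeostatic level. Within homeostatic microglia it was at 78.2, 44.0 and 42.8 CPM against 56.1, 57.0 and 50.9 CPM (−0.01, 95% interval −0.64 to 0.61). Mature oligodendrocytes held 53.5, 42.0 and 42.6 CPM against 57.7, 53.9 and 53.0 CPM (−0.26, SE 0.09, edgeR adjusted p = 0.32), and Abcg1 in mature oligodendrocytes was called lower without LPA 1 (−0.37, edgeR adjusted p = 0.032).

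Lpl (ENSMUSG00000015568, chromosome 8, 68880491 to 68907448, plus strand), the lipase gene, was sparse, with 921 UMIs in all nuclei kept. It passed the filter in neurons alone, at 6.08, 5.48 and 5.89 CPM with LPA and 6.97, 6.37 and 5.33 CPM with vehicle (−0.09, 95% interval −0.38 to 0.21). Activated microglia held 11, 6 and 12 UMIs of Lpl, or 46.2, 15.9 and 34.7 CPM, while homeostatic microglia held 3, 7 and 2 UMIs in LPA libraries and 0, 3 and 0 UMIs in vehicle libraries. These counts were too low for a test, and 1 UMI moves a library's level in activated microglia by several CPM.

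Nr1h3 (ENSMUSG00000002108, chromosome 2, 91184061 to 91202834, minus strand), the sterol sensor, was sparse too, with 838 UMIs. In vehicle libraries pericytes and smooth muscle cells held 39.2 to 66.9 CPM, above meningeal cells (10.7 to 18.0 CPM), and every other population was at or under 7.17 CPM. In pericytes and smooth muscle cells the LPA libraries held 48.9, 66.6 and 50.7 CPM and the vehicle libraries 66.9, 42.6 and 39.2 CPM (0.23, 95% interval −0.28 to 0.74). Macrophages held 0 UMIs in all 6 libraries, and activated microglia 2, 2 and 0 UMIs, which these numbers of nuclei do not let tell apart from a low level. edgeR called Nr1h3 in 0 of the 4 populations in which it passed the filter, DESeq2 gave an adjusted p in 1 of them and did not call it, and 0 were under an unadjusted p of 0.05.

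Other genes of lipid traffic were followed on a list of 101 genes that includes the 8. Over all microglia 10 of the 63 list genes tested rose and 2 fell, or 19.0% against 9.26% of all genes, with a median of 0.08. The 10 and 2 include 3 and 1 of the 8 genes (Apoe, Abca1 and Abcg1, and Clu). These were chosen with earlier results known, so the share counts their calls again. Genes of sterol storage and intracellular transport accounted for 5 of the 10. Plin2, which coats lipid droplets, rose from 6.27 to 30.5 CPM in vehicle libraries to 90.7 to 130 CPM in LPA libraries (2.97, SE 0.38, edgeR adjusted p = 2.1e-07). Its vehicle level was near the floor, with 10 UMIs in homeostatic microglia of the 3 vehicle libraries. Pparg and Plin3, which also rose, were at 0 to 7.95 and 0 to 6.27 CPM in vehicle libraries. Plin2, Pparg and Plin3 are counted among the 10 and passed the filter on low counts through their LPA libraries. Soat1, which esterifies cholesterol for storage, rose by 1.53 (SE 0.20, edgeR adjusted p = 3.3e-07), and Gramd1b, which carries cholesterol from the plasma membrane to the endoplasmic reticulum, by 1.55 (SE 0.19, edgeR adjusted p = 6.7e-08). Like Apoe, Soat1 was higher in activated microglia (352 to 462 CPM) than in homeostatic microglia of LPA libraries (64.7 to 85.9 CPM), with the Anapc15 Rcbtb2 microglia between them (110 to 152 CPM). Pparg, a lipid-activated nuclear receptor, held 104 to 113 CPM in activated microglia, while the Anapc15 Rcbtb2 microglia held 0 UMIs of it.

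In Gfap-rich astrocytes 6 of 79 list genes rose and 6 fell, or 15.2% against 9.22% of all genes, with a median of −0.13. This share too counts again the calls of Abca1, Apoe and Clu. Of the 8 lipid carriers tested, 3 fell, namely Apoe, Clu and Apod, the last by 1.83 on the log2 scale (SE 0.26, edgeR adjusted p = 7.4e-05). Receptors and their partners went both ways: Lrp1b, a relative of Lrp1, rose by 0.70 (SE 0.10, edgeR adjusted p = 6.7e-05), and Reln, the ligand of VLDLR, fell by 1.00 on the log2 scale (SE 0.17, edgeR adjusted p = 0.00044). Reln also led a cluster of neurons, and the part of free RNA in the levels of Reln and Apod was not tested. In ependymal cells 4 of 76 list genes fell and 0 rose (5.26% against 3.86% of all genes). They included Apoe and also Lrp2, the endocytic receptor megalin, at −1.07 (SE 0.23, edgeR adjusted p = 0.011). In committed precursors and new oligodendrocytes Lrp1 was the 1 list gene that rose. Leaving out 1 library at a time, the calls of Lrp1b, Apod and Reln in Gfap-rich astrocytes and of Plin2, Soat1 and Gramd1b in all microglia were kept each time, and that of Lrp2 in ependymal cells 5 of 6 times.

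Across the mean vehicle levels of 14 populations, the genes most like each of the 8 were sought among 14990 genes by Pearson's r of log2(CPM + 1), as a description over populations that share libraries. Soat1 was closest to Apoe (0.939), followed by Pla2g7 (0.915) and Sdc4 (0.910). The metallothionein gene Mt2 was closest to Clu (0.962), Arhgef40 to Lrp1 (0.910), Elovl6, a fatty acid elongase gene, to Vldlr (0.891), Eif2ak2 to Abca1 (0.950), Pvr to Abcg1 (0.888), and Myl9 and the pericyte gene Pdgfrb to Nr1h3 (0.962 and 0.961). Lpl was under 10 CPM in every population of this set and was not compared.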

How the data were processed

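Per the labels and the study's methods, the authors counted UMIs with Cell Ranger 4.0.0 with mm10 as a pre-mRNA reference, and intronic reads therefore enter the values. The deposited matrices hold raw counts of 32285 genes per nucleus, without normalization. The study's filters left 57443 nuclei. They asked for 300 or more genes, for 1% mitochondrial UMIs or less, and for a UMI total that is no outlier by the interquartile range of the library, for which a factor of 1.5 was set here. Median UMI counts per nucleus were 4001 to 4578 in LPA and 3732 to 4513 in vehicle libraries.

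Nuclei were clustered with scanpy 1.11.5 and leidenalg 0.10.2 (Python 3.11.15) on 3000 variable genes, 40 principal components and 30 neighbours at resolution 1, without the genes reported or used for naming. Of 40 clusters, those that met the marker rules were named, and 9624 nuclei stayed unnamed. These rules were tuned on the clusters themselves. The authors' integration and label transfer were not repeated, and names rebuilt here may differ from the study's. Doublets were left out in an alternative only, from Scrublet calls (rate set to 0.08) on 12.69% to 15.43% of the nuclei of a library.

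UMIs were summed per library and population, for populations with at least 10 nuclei in each library. All microglia joins the homeostatic, activated and other microglial clusters, since the activated state had at most 1 nucleus per vehicle library. edgeR 4.0.16 (R 4.3.3) fitted TMM-scaled sums after its default filter, and its quasi-likelihood p-values were adjusted by Benjamini-Hochberg. The test had been checked on simulated counts. Differences of the LPA effect were tested against telencephalic astrocytes with library as a block. Alternatives were DESeq2 1.42.0, other scaling and filters, the replicate block, each library left out, other clusterings and, chosen after seeing the data, shared barcodes left out.

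All 8 genes were named in every population. Of the other list genes, those with the lowest adjusted p among the calls of a population were named. The genes and lists were chosen with earlier results of these data known. Gene positions are from the annotation of GRCm38, counted from 1, and promoters from RefSeq. Intervals of log2 fold changes are 95% intervals.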

Additional observations from a re-analysis of the deposited data

Results flagged for a closer look

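The LPA effect on Apoe differed between astrocyte populations by edgeR's test of the interaction, with the library as a block. It was lower in Gfap-rich than in telencephalic astrocytes, by −0.46 on the log2 scale (SE 0.09, edgeR adjusted p = 0.00042). It was higher in Slc6a11 Agt than in telencephalic astrocytes, by 0.26 (SE 0.05, edgeR adjusted p = 0.00073). The difference of Gfap-rich astrocytes was −0.29 (edgeR adjusted p = 0.079) without LPA 3 and no longer called, and that of Slc6a11 Agt astrocytes was not called without LPA 1, LPA 2, vehicle 1 or vehicle 3 (0.19 to 0.25, edgeR adjusted p = 0.002 to 0.22). Both comparisons share the telencephalic astrocytes of the same 6 libraries. The part of the larger number of Gfap-rich nuclei in LPA libraries, 1334 against 583, was not tested.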

How the results depend on the processing

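Of 1764 values recomputed for the 8 genes, 1709 kept their side of the threshold, 43 were no longer called and 12 became called. Each pair called between LPA and vehicle kept its direction in every alternative, which is not said of uncalled differences. edgeR's count of pairs called lower, 8, was 4 without LPA 2 and 4 without vehicle 2, while the number of pairs called higher stayed within 1.5 times its value. The number of pairs with a different LPA effect, 2, was 1 with DESeq2 size factors and 1 to 4 with 1 library left out. Apoe in telencephalic astrocytes, Gfap-rich astrocytes, ependymal cells and all microglia, and Abca1 and Abcg1 in all microglia, were called in all 16 alternatives.

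With the replicate block, the calls of Clu in Slc6a11 Agt astrocytes (−0.40, edgeR adjusted p = 0.062), Abca1 in homeostatic microglia (0.53, 0.079) and Apoe in meningeal cells (−0.47, 0.066) were lost and no other. Samples with the same replicate number correlated at −0.17 to 0.195 in their deviations (median 0.0656) and those with other numbers at −0.293 to 0.228, so the numbers were not taken to pair the libraries.

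Counts of all genes called also moved. In telencephalic astrocytes 329 genes were called, and 130 to 416 with 1 library left out. The counts were 49 and 17 to 94 in Slc6a11 Agt astrocytes, 970 and 649 to 907 in Gfap-rich astrocytes, 252 and 94 to 243 in committed precursors and new oligodendrocytes, 416 and 132 to 325 in ependymal cells, 132 and 71 to 124 in meningeal cells, 22 and 14 to 38 in homeostatic microglia and 824 and 460 to 778 in all microglia. DESeq2 called 594 in Gfap-rich astrocytes and 452 in all microglia. Scaling by total UMIs alone changed the split of higher and lower calls from 629 and 341 to 452 and 531 in Gfap-rich astrocytes, from 180 and 149 to 125 and 192 in telencephalic astrocytes and from 124 and 128 to 167 and 99 in committed precursors and new oligodendrocytes. The cause was not tested. Depth limited Lpl and Nr1h3, whose UMIs were too few for a test in most populations.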
